A study of Mus musculus with 3 samples.

Results

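The genes of one signalling route to the nucleus were followed in maps of 5-methylcytosine (5mC), the methylated DNA base, in mouse heart muscle cells: the MEF2 factors Mef2a, Mef2c and Mef2d, the class IIa histone deacetylases Hdac4, Hdac5 and Hdac9, and the calcineurin-regulated NFAT factors Nfatc1, Nfatc2, Nfatc3 and Nfatc4. These 10 of the 21887 protein-coding genes annotated by RefSeq were chosen by name, with earlier results of these data known. A peak of 5mC was assigned to a gene when its midpoint lay between the annotated gene start and end. The genes held 120 of the 162107 TAC peaks and 107 of the 135886 Sham peaks. The TAC library came from cardiomyocytes after transverse aortic constriction, a narrowing of the aorta that loads the left ventricle with pressure, kept for 1 week per the series title, and the Sham library from cardiomyocytes after the control operation. Both used male mice of strain C57Bl6/J, 8 weeks of age, and the labels name no transgene. Methylated DNA was captured with an antibody and sequenced (MeDIP-seq) by a sequencing service, and an Input library without antibody, which served the authors' peak calling, was not analysed here. Each group has 1 library, so there is no replicate check of any difference below, and the sources used here do not say whether several animals were pooled.

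In the heart muscle cell, raised calcium activates the phosphatase calcineurin, which removes phosphate from NFAT proteins and lets them enter the nucleus. MEF2 proteins sit on the promoters and enhancers of muscle genes, where class IIa histone deacetylases bind and silence them. Kinases of the CaM kinase and protein kinase D families phosphorylate these deacetylases, 14-3-3 proteins then hold them outside the nucleus, and MEF2 is released. Both branches are textbook routes to hypertrophy, the growth of heart muscle cells under load. Nfatc1 is also known for its part in heart valve formation, in the endocardium. 5mC sits mainly on CG dinucleotides (CpG), and promoters rich in CpG are usually unmethylated.

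The promoter windows that the results turn on are shown first, since they hold the CpG that a 5mC peak can read. They are RefSeq windows on GRCm38.p6 (mm10), 300 bp each, from 250 bases before to 50 bases after a start site, printed 5′ to 3′ on the strand of the gene. The start site is base 251 of each window. The RefSeq promoter table held 14 windows for 9 of the 10 genes, all but Nfatc1. In the windows of Mef2a (chr7:67372809-67373108, minus strand) and Hdac5 (chr11:102230123-102230422, minus strand) the capitals mark a match to the MEF2 site letters CTAAAAATAG or their reverse complement. In the second window of Nfatc2 (chr2:168590316-168590615, minus strand) the capitals mark the bases that a Sham peak covers. In the first window of Nfatc2 (chr2:168601608-168601907, minus strand), the second window of Mef2c (chr13:83523406-83523705, plus strand) and the second window of Hdac9 (chr12:34528840-34529139, minus strand) the capitals mark every CpG.
Mef2a: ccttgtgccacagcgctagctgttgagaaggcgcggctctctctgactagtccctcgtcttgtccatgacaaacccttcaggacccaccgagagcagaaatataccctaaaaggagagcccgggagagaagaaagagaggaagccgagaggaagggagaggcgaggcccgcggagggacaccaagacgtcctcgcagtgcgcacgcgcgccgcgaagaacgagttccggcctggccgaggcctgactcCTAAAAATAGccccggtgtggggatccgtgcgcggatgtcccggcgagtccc
Hdac5: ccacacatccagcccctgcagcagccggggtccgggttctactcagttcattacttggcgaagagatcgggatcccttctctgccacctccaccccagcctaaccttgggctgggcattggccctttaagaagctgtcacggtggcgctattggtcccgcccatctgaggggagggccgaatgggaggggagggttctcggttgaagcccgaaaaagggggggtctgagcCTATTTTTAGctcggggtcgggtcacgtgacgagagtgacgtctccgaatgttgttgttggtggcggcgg
Nfatc2, second window: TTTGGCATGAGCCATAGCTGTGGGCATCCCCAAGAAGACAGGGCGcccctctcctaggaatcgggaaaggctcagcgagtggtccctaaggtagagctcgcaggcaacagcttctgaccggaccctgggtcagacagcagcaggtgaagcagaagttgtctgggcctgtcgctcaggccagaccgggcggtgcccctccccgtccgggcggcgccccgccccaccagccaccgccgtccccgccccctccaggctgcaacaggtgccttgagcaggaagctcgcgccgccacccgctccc
Nfatc2, first window: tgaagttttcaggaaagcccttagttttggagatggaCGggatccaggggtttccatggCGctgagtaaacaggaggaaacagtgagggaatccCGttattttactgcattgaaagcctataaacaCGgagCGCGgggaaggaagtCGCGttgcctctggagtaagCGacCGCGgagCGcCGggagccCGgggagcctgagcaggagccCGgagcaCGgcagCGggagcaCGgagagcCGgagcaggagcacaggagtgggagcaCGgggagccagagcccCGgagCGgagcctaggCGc
Mef2c, second window: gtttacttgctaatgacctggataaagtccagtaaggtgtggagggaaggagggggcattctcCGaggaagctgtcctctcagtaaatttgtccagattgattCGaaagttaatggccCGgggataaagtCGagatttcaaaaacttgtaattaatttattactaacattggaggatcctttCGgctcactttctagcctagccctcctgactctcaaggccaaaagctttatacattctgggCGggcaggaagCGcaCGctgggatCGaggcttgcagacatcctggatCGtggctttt
Hdac9, second window: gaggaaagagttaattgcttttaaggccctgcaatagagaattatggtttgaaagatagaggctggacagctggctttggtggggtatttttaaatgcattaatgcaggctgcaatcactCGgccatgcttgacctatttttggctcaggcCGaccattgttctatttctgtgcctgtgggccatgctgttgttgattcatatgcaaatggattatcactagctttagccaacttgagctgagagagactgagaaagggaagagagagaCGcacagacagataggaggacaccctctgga

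The 14 windows differed widely in CpG. The single windows of Hdac4 and Mef2a held 32 and 27 CpG, that of Mef2d held 24 and that of Hdac5 held 18. Nfatc2 had 23 CpG in its first window and 20 in its second, and Nfatc3 had 7 in its first and 32 in its second. Mef2c, with 3 start sites, had 1, 10 and 4 CpG, Nfatc4 had 11, and Hdac9 had 0 at its first start site and 3 at its second. The MEF2 letters stood at bases 249 to 258 of the Mef2a window, across the start site, and at bases 231 to 240 of the Hdac5 window. The search covered both strands and was made after the sequences had been seen, and 19 of 21263 RefSeq promoter windows of this length (0.0894%) hold these letters. A looser search for the MEF2 consensus by name matched 2 of the 14 windows and 583 of all windows (2.74%). A match of letters describes the window and is not a measured site.

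No TAC peak and 1 Sham peak overlapped any of the 14 windows, against 3.43% of all promoter windows overlapped by a TAC peak and 3.17% by a Sham peak. The Sham peak lay at chr2:168590571-168591071 and covered bases 1 to 45 of the second Nfatc2 window, with 1 of its 20 CpG, and its near edge stood 206 bp before the start site. No TAC peak overlapped it, and it stood at a row fraction of 0.458. The row fraction is the place of a peak in its deposited list, 0 for the first row and 1 for the last, and low values go with high inferred tag numbers, as described with the processing. Within 1 kb of a start site lay TAC peaks at 2 windows, where 13.3% of all windows have one, and Sham peaks at 2 windows, where 12% have one. The TAC peaks were 972 bp inside the start site of Hdac5 (chr11:102228700-102229200, row fraction 0.802) and 741 bp inside the second start site of Mef2c (chr13:83524397-83524897, row fraction 0.743). The Sham peaks were both in Nfatc2, the one already described and one 701 bp inside the first start site (chr2:168600327-168600956, row fraction 0.527). None of these 4 peaks had an overlapping peak in the other library. Windows with 15 or more CpG, the class of 7 of the 14, were overlapped by TAC peaks in 2.2% and by Sham peaks in 1.78% of cases over all promoters, and windows with 5 to 14 CpG by TAC peaks in 5.69% and by Sham peaks in 5.88%. For windows with 0 to 4 CpG, the class of 4 of the 14, it was 3.5% by TAC peaks and 3.1% by Sham peaks. The promoters of these regulators were nearly free of 5mC peaks in both libraries, as were most promoters. With 14 windows, such low counts cannot be told from the shares over all promoters. A window with few or no CpG also holds little that a 5mC peak can read.

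**Figure D1:**
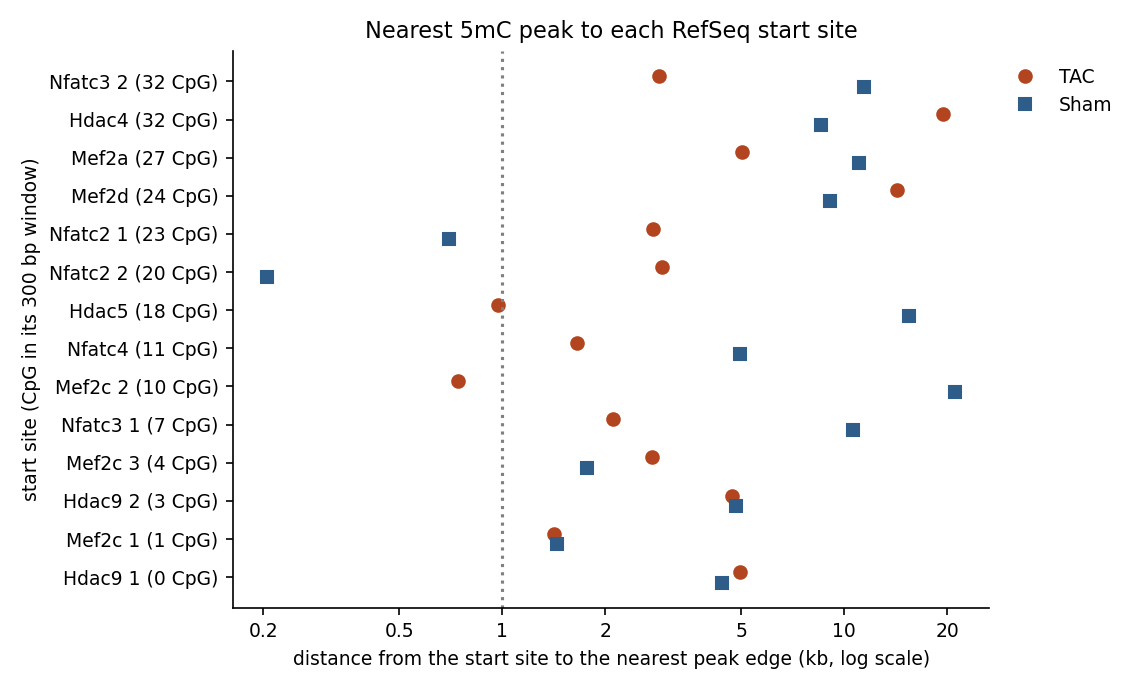
Distance from each of the 14 RefSeq start sites to the edge of the nearest peak (kb, log scale) in the TAC library (circles) and the Sham library (squares), with the gene, the number of its start site and the CpG in its window at the left. The dotted line marks 1 kb, inside which lie TAC peaks at Hdac5 and Mef2c and Sham peaks at both Nfatc2 start sites.

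Gene ends were counted next. Within 1 kb of either annotated gene end, 2 genes had a TAC peak, where 24.5% of protein-coding genes do, and 4 had a Sham peak, where 23.6% do. The 5′ end of Hdac5 was covered in TAC alone, a state that 8.59% of protein-coding genes share. The 3′ ends of Mef2c and Hdac4 and the 5′ end of Nfatc2 were covered in Sham alone, as are ends of 7.68% of protein-coding genes. The 3′ end of Nfatc4 was covered in both libraries, which holds for 16% of protein-coding genes. The Sham peak at Mef2c (chr13:83665972-83666615) ended 464 bp before the gene end, and the Sham peak at Hdac4 (chr1:91928734-91929234) lay across it. Of all these peaks at gene ends, only the Sham peak of Nfatc4 stood before row fraction 0.5, at 0.368.

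Inside the gene bodies the count of TAC and Sham peaks was close. The TAC library, with 14658177 tags, was deeper than the Sham library, with 12585289 tags, and peaks held 34.67% of the TAC tags and 29.88% of the Sham tags, per the file headers. Over all 10 genes the 120 TAC peaks were 52.86% of the sum (exact 95% interval 46.15 to 59.5%, counting error only), beside 51.73% over all protein-coding genes. Per 100 kb of gene the 10 genes held 6.58 TAC peaks and 5.87 Sham peaks, beside 6.58 TAC and 6.14 Sham peaks over all protein-coding genes. Of the 10 genes 9 had a peak, where 64.1% of protein-coding genes do. That percent is not matched for gene length, and longer genes have more room for a peak. The 10 genes span 1822 kb together. TAC peaks outnumbered Sham peaks in 6 genes, beside 39.7% of protein-coding genes with a peak. They were fewer in Nfatc1 alone, beside 32.8%, and equal in Mef2c and Nfatc4, beside 27.4%. In each of the 9 genes the interval of the TAC share included 50%. The intervals were wide where peaks were few, 28.36 to 99.49% in Mef2a and 6.759 to 93.24% in Nfatc4. They therefore cannot show that a gene was alike in the libraries. With the deeper TAC list held to the Sham number of rows, the TAC share was 48.31%, and TAC peaks outnumbered Sham peaks in 2 genes, Mef2a and Hdac5, and were fewer in 4. At a nearly equal depth-scaled tag number TAC peaks were more in 3 genes and fewer in 2.

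**Figure D2:**
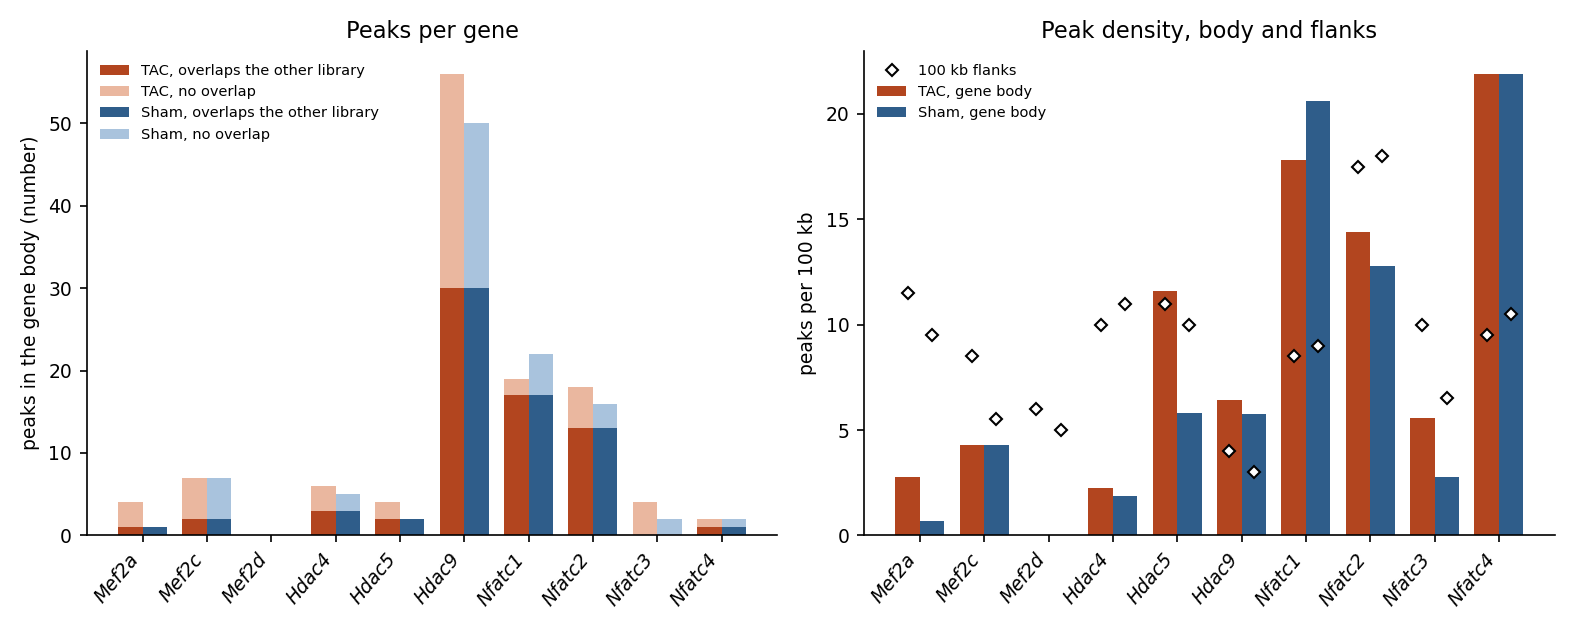
Left, number of peaks in the body of each gene, TAC bars left of Sham bars, with the dark part overlapping a peak of the other library and the pale part not. Right, the same peaks per 100 kb, with diamonds for the 100 kb on both sides of the gene in the same library. Hdac9 holds the most peaks, while Nfatc1, Nfatc2 and Nfatc4 are densest and Mef2d holds none.

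The part of the 5mC map common to both libraries was counted for each family. In the NFAT genes 31 of 43 TAC peaks (72.09%, 56.33 to 84.67%) and 31 of 42 Sham peaks (73.81%, 57.96 to 86.14%) had at least 1 bp in common with a peak of the opposite library (a shared peak). In the class IIa deacetylase genes it was 35 of 66 TAC peaks (53.03%, 40.34 to 65.44%) and 35 of 57 Sham peaks (61.4%, 47.57 to 74%). In the MEF2 genes it was 3 of 11 TAC peaks (27.27%, 6.022 to 60.97%) and 3 of 8 Sham peaks (37.5%, 8.523 to 75.51%). Each of these intervals overlapped those of the other families in the same library. Over all 10 genes 69 peaks of each library were shared, which is 57.5% of the TAC peaks (48.15 to 66.47%) and 64.49% of the Sham peaks (54.65 to 73.5%). Over protein-coding genes 59.9% of TAC peaks and 63.8% of Sham peaks were shared, so the sum of the 10 genes lay at the background. Nfatc1 and Nfatc2 together had 30 shared peaks in each library, out of 37 TAC and 38 Sham peaks, while Nfatc3 and Nfatc4 had 0 and 1. Among protein-coding genes with at least 10 peaks in each library, 19% have 70% or more of their peaks shared in both, as these 2 genes do. The 7 genes other than these and Hdac9 had 9 shared peaks in each library, out of 27 TAC and 19 Sham peaks. This split of the genes was made after their shared counts were seen and is a description only. Neighbouring peaks share their DNA, so such intervals are narrower than the true error.

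The order of peak density from high to low in TAC was Nfatc4, Nfatc1, Nfatc2, Hdac5, Hdac9, Nfatc3, Mef2c, Mef2a, Hdac4 and Mef2d. Nfatc4, a short gene of 9.149 kb, had 21.9 peaks per 100 kb in both libraries from only 2 peaks in each. In Sham, Hdac5 and Hdac9 stood close at 5.81 and 5.75 peaks per 100 kb, Mef2c came before Nfatc3, and Hdac4 before Mef2a. Genes with 1 to 7 peaks in a library cannot be ordered beyond their counting error. In the 100 kb on both sides the 10 genes had 193 TAC and 176 Sham peaks. The TAC share there was 52.3% (47.07 to 57.5%), close to the 52.86% of the gene bodies. Gene bodies were denser than these flanks in 4 genes in TAC and in 3 in Sham, and no such count over all protein-coding genes is given here. In Nfatc1 the body had 17.8 TAC and 20.6 Sham peaks per 100 kb, and the flanks 8.5 TAC and 9 Sham peaks. In Hdac4 the body had 2.25 TAC and 1.87 Sham peaks per 100 kb, and the flanks 10 TAC and 11 Sham peaks.

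Mef2a, which encodes a MEF2 factor abundant in adult heart muscle, spans chr7:67231163-67376456 and had 4 TAC peaks and 1 Sham peak. The only shared place in the gene looked different in the TAC and Sham lists. The TAC peak ran over chr7:67253737-67255503, 1767 bp, at a row fraction of 0.0344 and with 101 inferred tags. The Sham peak ran over chr7:67253967-67254467, 501 bp, at a row fraction of 0.828 and with 12 inferred tags. These tag numbers belong to regions of unequal length, called separately in each library, so they give no ratio at one place. A pairing of this kind was rare: of the shared TAC peaks in protein-coding genes among the first 5% of rows, 3 of 3689 (0.0813%) had a Sham counterpart past row fraction 0.8. The gene was singled out after its values were seen, and its own pair is among the 3. The limits of 5% and 0.8 lie close to its row fractions of 0.0344 and 0.828. The share is therefore a description only. The other 3 TAC peaks of Mef2a lay at row fractions of 0.392, 0.592 and 0.634, and no Sham peak touched them. The last of them by position, at chr7:67367340-67367840, lay 5018 bp inside the start site whose window is printed above.

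Mef2c encodes the MEF2 factor needed to form the heart in the embryo, and its gene at chr13:83504017-83667079 had 7 TAC and 7 Sham peaks. Equal counts hid different places, since 2 peaks of each library were shared. The strongest shared place was at chr13:83584649-83585149 in TAC, with a row fraction of 0.17, and at chr13:83584617-83585117 in Sham, with 0.309. Before the third start site lay 3 TAC peaks and no Sham peak, and after it 4 TAC and 7 Sham peaks. All 3 early TAC peaks were 501 bp wide and low in the list, at row fractions of 0.944, 0.743 and 0.944. The last Sham peaks toward the 3′ end were also unshared, at 0.708 and 0.862. Mef2d, whose product is known to drive stress-dependent remodelling of the mouse heart, spans chr3:88141941-88172091 and had no peak in either library. Its flanks of 100 kb on both sides held 12 TAC and 10 Sham peaks.

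**Figure D3:**
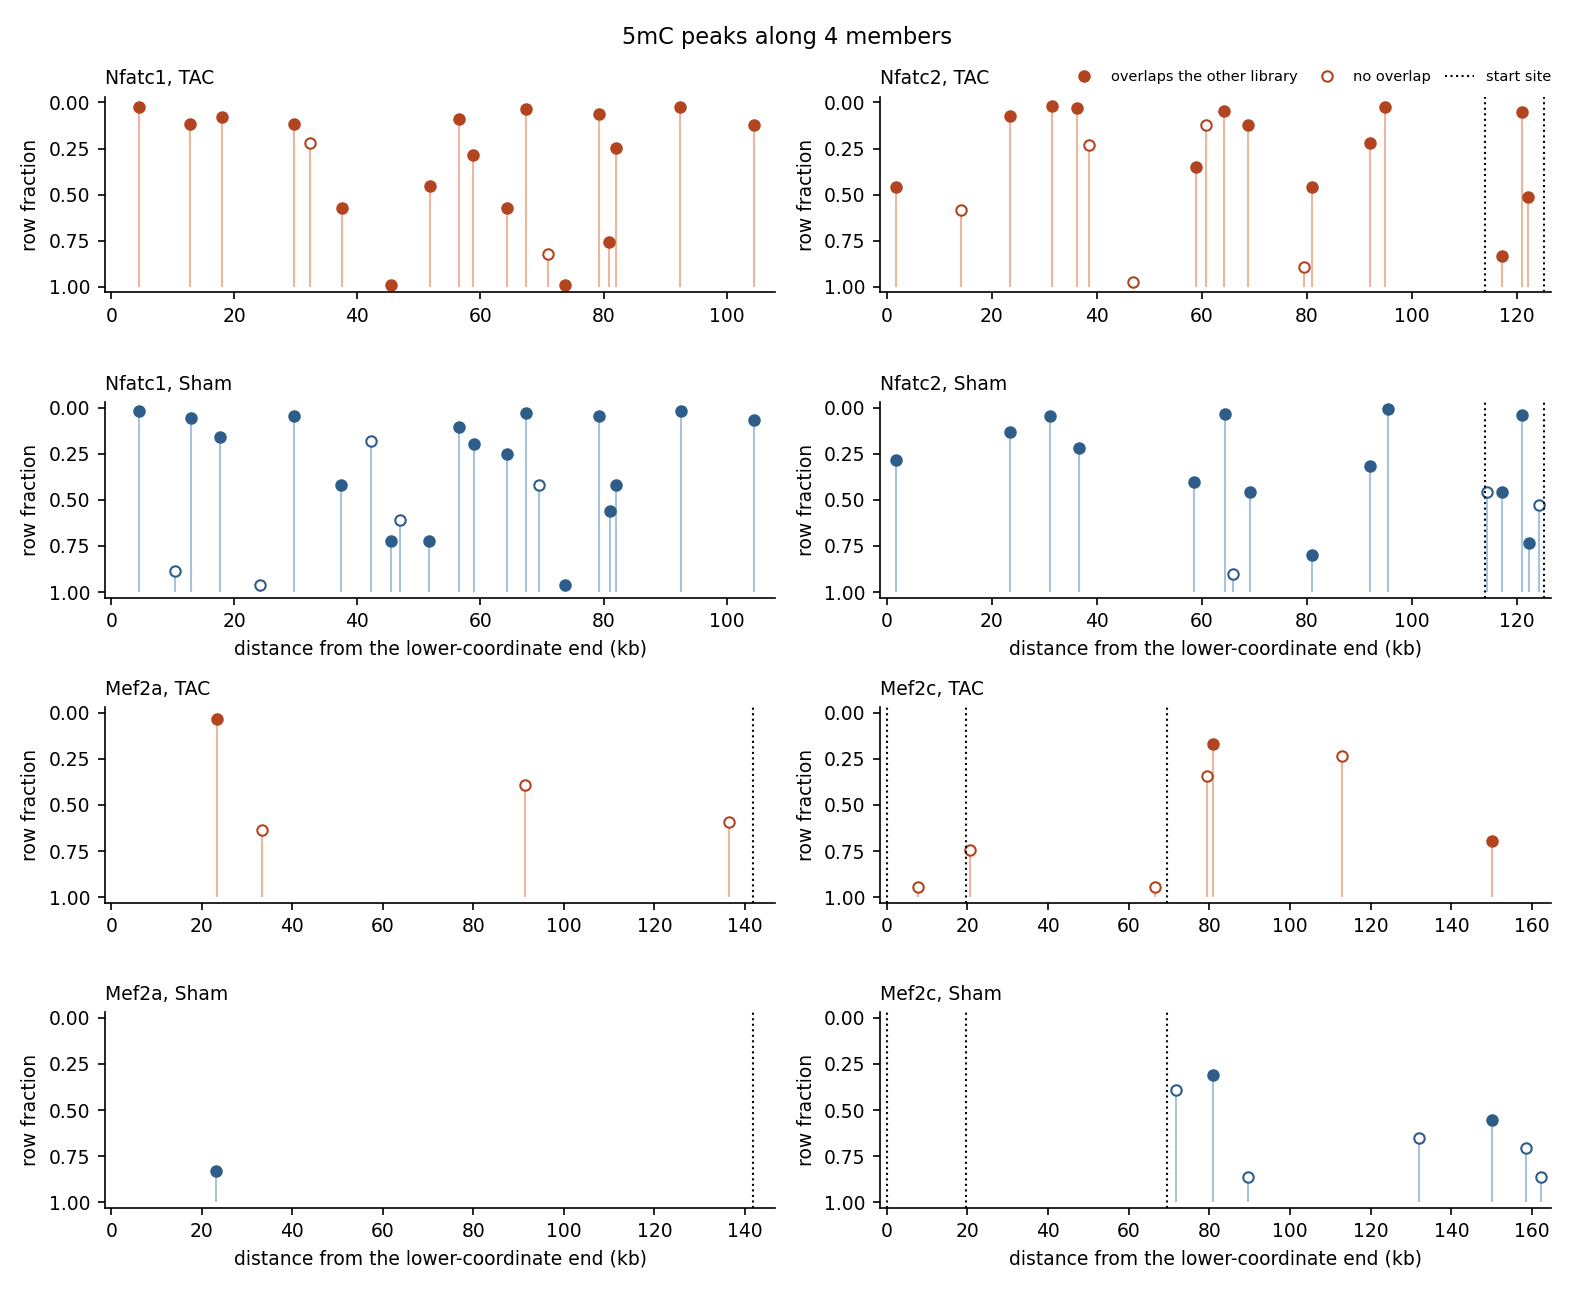
Peaks along Nfatc1, Nfatc2, Mef2a and Mef2c, TAC over Sham for each gene, by distance from the lower-coordinate gene end (kb) and row fraction in the deposited list (0, at the top, is the first row). Filled points overlap a peak of the other library, open points do not, and dotted lines are RefSeq start sites, none drawn for Nfatc1. Most points of the NFAT genes are filled in both libraries, while Mef2a has 1 filled point, high in TAC and low in Sham.

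Among the deacetylases, Hdac4 and Hdac5 encode repressors that leave the nucleus when CaM kinase or protein kinase D is active. Hdac4, at chr1:91928779-92195702, had 6 TAC and 5 Sham peaks over 266.9 kb, and 72.4% of protein-coding genes of at least 5 kb were denser. Its strongest peak stood in both lists, at chr1:92160289-92160914 in TAC with a row fraction of 0.0747 and at chr1:92160178-92160951 in Sham with 0.0623. All its other peaks were 501 bp wide and lay past row fraction 0.5 in both libraries. Hdac5, at chr11:102195747-102230172, had 4 TAC and 2 Sham peaks. Both Sham peaks were shared. At the wider of these places the TAC peak was 774 bp at row fraction 0.294 and the Sham peak 501 bp at 0.853.

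Hdac9, a deacetylase gene whose shorter protein MITR lacks the catalytic domain and represses MEF2, held more peaks than any other of the 10 genes. It spans chr12:34047580-34917095, 869.5 kb, and had 56 TAC and 50 Sham peaks, with 30 shared in each library. The TAC share was 52.83% (42.89 to 62.6%), and without Hdac9 the other genes had 64 TAC and 57 Sham peaks, a share of 52.89%. The part of the gene before the second RefSeq start site had 32 TAC and 30 Sham peaks, or 8.24 TAC and 7.73 Sham peaks per 100 kb. The part after it had 24 TAC and 20 Sham peaks, or 4.99 TAC and 4.16 Sham peaks per 100 kb. Of these, 20 peaks of each library were shared before the second start site and 10 of each after it. The longest stretch without a Sham peak, chr12:34639042-34785571, ran over 146.5 kb and held 6 TAC peaks at row fractions of 0.445 to 0.938. The longest stretch without a TAC peak, chr12:34454904-34533582, ran over 78.68 kb and held 1 Sham peak at row fraction 0.704.

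Unshared TAC peaks came in rows along Hdac9. A run was taken in the order of all peaks of both libraries, so that a peak of the other library ends it. In 2 places 6 TAC peaks in a row had no Sham overlap and no Sham peak between them, over 64.63 kb (chr12:34290978-34355605) and over 122.3 kb (chr12:34652919-34775180), while unshared Sham peaks came at most 2 in a row with no TAC peak between them. In each of these TAC runs 2 of the 6 peaks lay past row fraction 0.838, where the TAC list reaches the Sham number of rows. Among 119 protein-coding genes with 80 to 130 peaks over both libraries, the longest such run had a median of 3 in TAC, with a range of 0 to 11, and a median of 3 in Sham, with a range of 1 to 5. Of the unshared TAC peaks in Hdac9, 2 were at least 1400 bp wide, at chr12:34453355-34454903 and chr12:34630252-34631745, with row fractions of 0.176 and 0.111. Over protein-coding genes 0.554% of unshared TAC peaks reach that width. Close to the second start site, whose window is printed above with 3 CpG, a shared peak began 4694 bp before the start site in TAC and 4833 bp before it in Sham. The TAC peak was 888 bp wide at row fraction 0.0192 and the Sham peak 628 bp at 0.142. Of the 30 overlapping pairs in Hdac9, the TAC peak was the wider in 13, the Sham peak in 5, and 12 were of equal width, where over protein-coding genes 33.1% of pairs were wider in TAC and 34.9% in Sham.

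**Figure D4:**
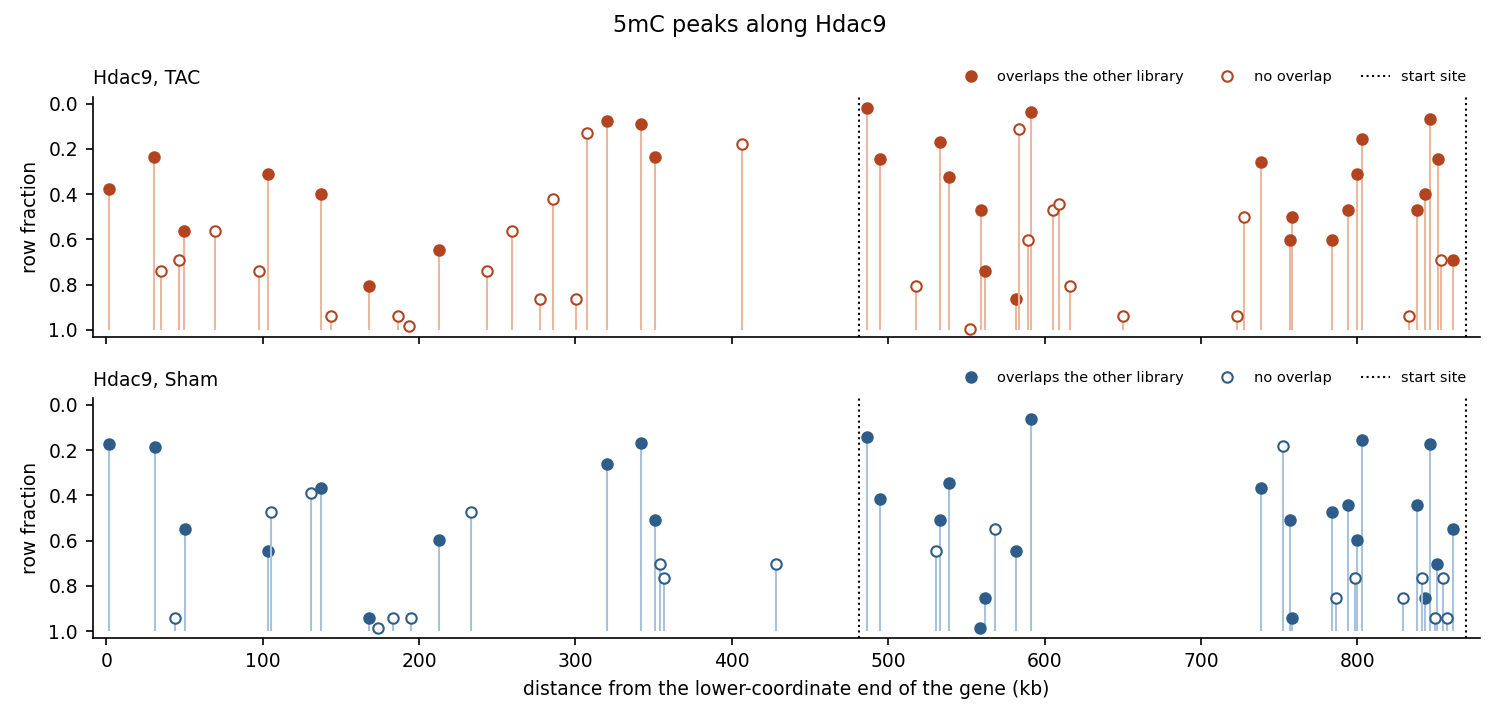
Peaks along Hdac9 in TAC (above) and Sham (below), by distance from the lower-coordinate gene end (kb) and row fraction (0 is the first row). Filled points overlap a peak of the other library and open points do not, and the dotted lines are the 2 RefSeq start sites, the first at the right since the gene lies on the minus strand. Between the start sites the Sham panel has an empty stretch of 146.5 kb in which TAC has 6 open points.

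The NFAT genes held most of the peaks that stood early in either list. Nfatc1, at chr18:80606205-80713071, had 19 TAC and 22 Sham peaks, with 17 shared in each library, and only 5.42% of protein-coding genes of at least 5 kb were denser. Peaks covered 14.1% of its length in TAC and 16.3% in Sham, with median row fractions of 0.218 in TAC and 0.226 in Sham. Its widest peak was 1992 bp in TAC (chr18:80697660-80699651, row fraction 0.0258) and 2278 bp in Sham (chr18:80697654-80699931, row fraction 0.0166). Of its 17 overlapping pairs, 5 were wider in TAC, 5 in Sham and 7 of equal width, and 4 had more depth-scaled inferred tags in TAC. The other 13 had more in Sham, where over protein-coding genes 51.4% of pairs had more in TAC. Depth scaling decides some of them: a pair with 121 TAC and 114 Sham inferred tags and a pair with 78 in each counted as more in Sham. The regions of a pair can also differ in length, so these counts do not show a difference in 5mC. Unshared in Nfatc1 were 2 TAC peaks, at row fractions of 0.218 and 0.823, and 5 Sham peaks, at 0.183 to 0.963.

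Nfatc2, at chr2:168476410-168601657, encodes an NFAT factor best known from T cells and had 18 TAC and 16 Sham peaks, with 13 shared in each. Its peaks covered 12.2% of the gene in TAC and 9.76% in Sham. At 3 of its shared places the widths of the pair differed by over 600 bp. At chr2:168511593-168513628 the TAC peak was 2036 bp wide at row fraction 0.0303, against a Sham peak of 628 bp at 0.22. At chr2:168544505-168545885 the TAC peak was 1381 bp at 0.12, against a Sham peak of 640 bp at 0.458. At the third place the order was turned round, with a TAC peak of 880 bp (chr2:168570808-168571687, row fraction 0.0231) against a Sham peak of 2360 bp (chr2:168570771-168573130, row fraction 0.00584). The Sham peak there was the widest of all member peaks in either library. Toward the start of the gene both unshared Sham peaks near the printed windows stood without a TAC counterpart, the nearest TAC peaks lying 2753 bp and 2936 bp from the start sites.

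Nfatc3, at chr8:106058818-106130537, encodes an NFAT factor required for calcineurin-driven hypertrophy in mice. It had 4 TAC and 2 Sham peaks and shared none. Of protein-coding genes with at least 6 peaks over both libraries and some in each, 1.11% share none. That minimum equals the total of Nfatc3 itself, and the class includes genes with many more peaks. The share therefore does not describe genes of like count. With the TAC list held to the Sham number of rows Nfatc3 had 1 TAC and 2 Sham peaks, and at a nearly equal depth-scaled tag number 2 TAC and 2 Sham peaks, which is below that minimum of 6. All 6 peaks were 501 bp wide, the TAC peaks at row fractions of 0.791 to 0.923 and the Sham peaks at 0.385 and 0.835. Nfatc4, at chr14:55824795-55833943, encodes the NFAT factor known to bind GATA4 in heart muscle cells and had 2 TAC and 2 Sham peaks. The shared pair near its 3′ end stood at row fractions of 0.534 in TAC and 0.368 in Sham, and the unshared peaks at 0.811 in TAC and 0.447 in Sham.

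Over all 69 overlapping pairs, the TAC peak was the wider in 26, the Sham peak in 16, and 27 were of equal width. Over protein-coding genes 33.1% of such pairs were wider in TAC and 34.9% in Sham. Depth-scaled inferred tags, over regions that can differ in length, were higher in TAC in 34 of the 69 pairs, beside 51.4% over protein-coding genes. A width at least 600 bp greater in TAC was found in 3 pairs, beside 2.68% of pairs over protein-coding genes, and at least 600 bp greater in Sham in 1, beside 3.97%. Peaks of 1400 bp or more numbered 6 in TAC, beside 3.48% of TAC peaks in protein-coding genes, and 2 in Sham, beside 4.68%. Just below that width stood Sham peaks of 1397, 1375 and 1352 bp and a TAC peak of 1381 bp. The 2 counts therefore depend on where the limit falls, and no other limit was tried. In the first 10% of the rows stood 19 TAC and 13 Sham peaks of the 10 genes, beside 10.8% of TAC peaks and 10.9% of Sham peaks in protein-coding genes. They were 15.8% of the TAC peaks and 12.1% of the Sham peaks, and 12 TAC and 11 Sham peaks of them lay in Nfatc1 and Nfatc2. Every one of them was shared, beside 98.6% of such TAC peaks and 97.9% of such Sham peaks over protein-coding genes. Unshared peaks were lower in the lists, with median row fractions of 0.74 in TAC and 0.745 in Sham, than shared peaks, with 0.294 in TAC and 0.415 in Sham. Such medians over all protein-coding genes are not given here, so this order is not shown to be particular to the 10 genes.

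**Figure D5:**
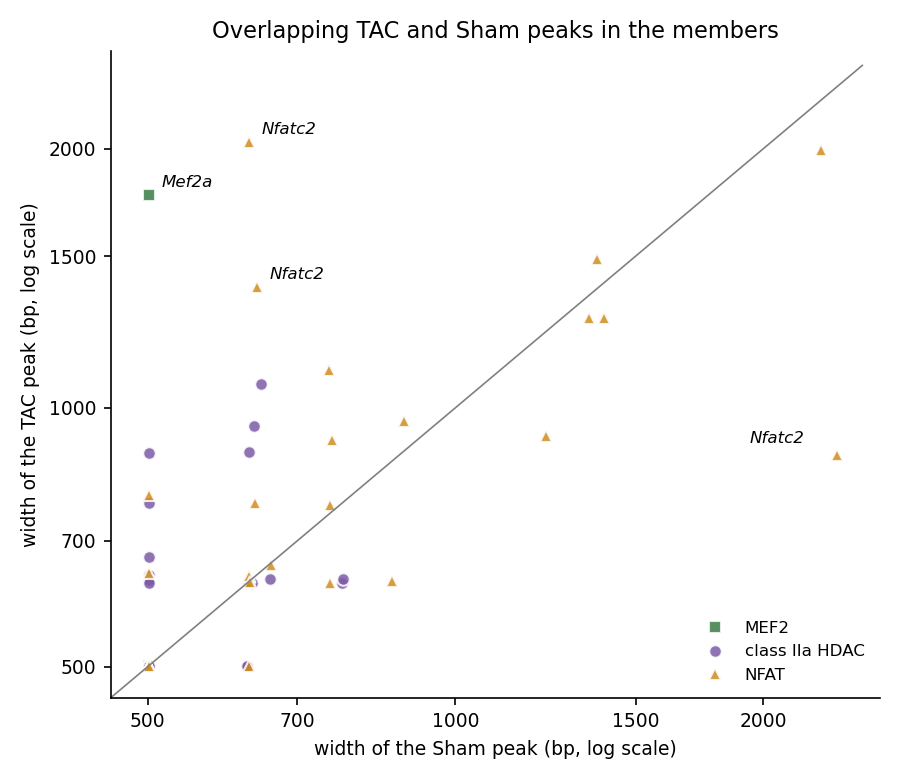
Width of the TAC peak against width of the overlapping Sham peak (bp, log scales) for the 69 pairs in the 10 genes, by family, with the line of equal width and many points on top of each other at 501 bp. Named are the 4 pairs that differ by at least 600 bp: Mef2a and 2 of Nfatc2 lie above the line, and 1 of Nfatc2 far below it.

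For the partners of these genes, 67 genes in 7 lists were counted in the same way, the lists being of textbook roles. Together they had 302 TAC and 270 Sham peaks, a TAC share of 52.8% (48.61 to 56.95%), with more TAC peaks in 27 genes, more Sham peaks in 15, equal numbers in 14 and no peak in 11. Of all protein-coding genes with a peak, 39.7% have more TAC peaks, 32.8% more Sham peaks and 27.4% equal numbers. An end was covered in TAC alone in 11 of the 67 genes, beside 8.59% of protein-coding genes, and in Sham alone in 7, beside 7.68%. The list of calcineurin and its regulators had 67 TAC and 50 Sham peaks over 16 genes. Its TAC share of 57.26% had an interval of 47.79 to 66.37%, and 7 genes had more TAC peaks, 2 more Sham peaks. Ppp3ca, the catalytic subunit of calcineurin, had 26 TAC and 21 Sham peaks. Rcan2, a calcineurin inhibitor, had 13 TAC and 5 Sham peaks, and Rcan1, the inhibitor that NFAT itself induces, had 10 TAC and 8 Sham peaks. Of the TAC peaks of this list 40 were shared (59.7%, 47 to 71.51%), beside 59.9% over protein-coding genes. Of its fewer Sham peaks 40 were also shared (80%, 66.28 to 89.97%), beside 63.8%. The shared part of the Sham peaks was also 80% in the list of cofactors (63.06 to 91.56%) and in that of other family members (44.39 to 97.48%). In the remaining lists it lay between 42.86% (14-3-3 and export genes) and 69.23% (other deacetylases). With 7 lists looked at, the 80% is a description only. An end of Rcan3, another inhibitor of the family, was covered in TAC alone. Ends covered in Sham alone were those of Ppp3ca, Rcan1 and Ppp3r2, a regulatory subunit gene with no peak in its body.

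The kinases that act on class IIa deacetylases and MEF2 had 136 TAC and 139 Sham peaks over 17 genes, with more TAC peaks in 7 and more Sham peaks in 7. Camk1d, a CaM kinase I gene, had 40 TAC and 49 Sham peaks, Prkd1 (protein kinase D) had 15 TAC and 14 Sham peaks, and Camk2a, a CaM kinase II gene, had 12 TAC and 14 Sham peaks. Ends covered in TAC alone were those of Prkd3, Mapk7, the kinase ERK5 that activates MEF2, and Mark2. Ends covered in Sham alone were those of Camk1d and Camk2b. The kinases that return NFAT to the cytoplasm had 27 TAC and 20 Sham peaks over 8 genes, among them Dyrk1a with 8 TAC and 4 Sham peaks, Gsk3b with 6 TAC and 6 Sham peaks, and Dyrk1b with 3 TAC and 4 Sham peaks. The end of Dyrk1a was covered in TAC alone.

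The remaining members of the families had 13 TAC and 10 Sham peaks. Hdac7, the fourth class IIa deacetylase, had 8 TAC and 8 Sham peaks, Nfat5, a factor that answers to osmotic stress without calcineurin, had 4 TAC peaks and 1 Sham peak, and Mef2b had 1 TAC and 1 Sham peak. The other deacetylases had 15 TAC and 13 Sham peaks, of which Hdac8 had 7 TAC and 6 Sham, Hdac1 had 3 TAC and 1 Sham, and Hdac2 had 2 TAC and 2 Sham. The 14-3-3 and export genes had 7 TAC and 7 Sham peaks. The 14-3-3 genes Ywhab, Ywhae and Ywhag had 3 TAC and 4 Sham peaks, 2 TAC and 0 Sham peaks, and 1 TAC and 2 Sham peaks, in that order. The cofactors had 41 TAC and 35 Sham peaks. Myocd, a coactivator in heart and smooth muscle, had 8 TAC and 7 Sham peaks, and Cabin1, a repressor of MEF2 and calcineurin, had 4 TAC and 4 Sham peaks. In these groups the ends of Nfat5, Hdac1, Ywhae, Gata6 and Nfatc2ip were covered in TAC alone, and those of Hdac11 and Ywhag in Sham alone.

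Genes of like size and count put the members in context. Nearest to Mef2c in length and in both peak counts were Trpc4, with 7 TAC and 7 Sham peaks at a distance of 0.00155, and Kat6b, with 7 TAC and 7 Sham peaks at 0.0875. Nearest to Hdac9 were Cacna2d3, with 59 TAC and 48 Sham peaks at 0.129, and Gm37013, with 50 TAC and 45 Sham peaks at 0.221. Nearest to Nfatc1 were Gng2, with 19 TAC and 21 Sham peaks at 0.0677, and Bcar3, with 18 TAC and 22 Sham peaks at 0.0879. The distance is taken over the log2 of length and of each count plus 1, in these 2 libraries. Of the 7 TAC and 7 Sham peaks, Trpc4 shared 4 in each library and Kat6b 5, where Mef2c shared 2. Cacna2d3 shared 35 TAC and 36 Sham peaks and Gm37013 29 in each library, where Hdac9 shared 30 in each. Gng2 shared 15 in each library and Bcar3 13, where Nfatc1 shared 17. With 2 genes beside each member, these counts are no background for sharing.

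The labelled cell type could not be checked by expression, since the maps hold 5mC alone, and genes that mark cell types are given by their peaks. The TAC share, in brackets, stands beside 51.73% over all protein-coding genes, of which 64.1% have a peak. Cardiomyocyte marker genes had 56 TAC and 34 Sham peaks (62.22%, 51.38 to 72.23%), in 7 of 10 genes. Ryr2 alone held 31 of these TAC and 20 of these Sham peaks, and Atp2a2, Nppa and Pln had 0 in both libraries. Endothelial marker genes had 49 TAC and 54 Sham peaks (47.57%, 37.64 to 57.65%) in 6 of 6 genes. Fibroblast marker genes had 13 TAC and 8 Sham peaks (61.9%, 38.44 to 81.89%) in 4 of 6, with Col1a2 and Tcf21 at 0. Smooth muscle and pericyte marker genes had 24 TAC and 23 Sham peaks (51.06%, 36.06 to 65.92%) in 5 of 6, with Cnn1 at 0. Immune marker genes had 20 TAC and 11 Sham peaks (64.52%, 45.37 to 80.77%) in 6 of 6. The part of other cells in the counts of the 10 genes was not tested.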

How the data were processed

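The samples were 1 TAC and 1 Sham MeDIP-seq library of cardiomyocyte DNA and an Input library. Per the submitters' processing notes, the build was mm10 and the tools were BWA 0.7.4-r385 with Picard, and HOMER 4.5. Per the file headers, HOMER called regions of enrichment in TAC and in Sham separately, each against the same input, with peaks of 500 bp, a spacing of 1000 bp, at least 4-fold over input and a Poisson p of 0.0001. The score column that the authors deposited is 1 for every peak and ranks none. The other deposited columns used were chromosome, start and end, and the lists give no signal per peak.

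Tag numbers were inferred from row order. Each deposited list falls into blocks sorted by position, 414 in TAC and 352 in Sham, and with 1 tag fewer per block and 8 in the last the sums reach 99.34% in TAC and 99.26% in Sham of the tags in peaks given by the file headers. No source states this reading, and it puts 3.25% of the peaks of each list below the tag threshold of 12 in TAC and 11 in Sham. Within a block peaks are sorted by chromosome, so a row fraction is coarse, and row fractions of lists of different lengths do not by themselves show a change.

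Peaks were assigned to RefSeq genes of GRCm38.p6 by midpoint and were shared at an overlap of 1 bp, and a gene end was covered by a peak within 1000 bp. Intervals are exact (Clopper-Pearson) at 95% and cover counting error only. With 1 library per group, TAC and Sham were not tested against each other. Counting and overlap functions were tested on simulated data. Python 3.11.15, pandas 2.3.3 and scipy 1.17.1 were used. The members and the lists were chosen with earlier results of these data known, the motif and the run lengths after the values were seen. Named partners are the 3 genes of each list with the most peaks and every gene with an end covered in exactly 1 library (2 genes that this rule names are not reported here), and 2 nearest genes are named for the member of each family with the most peaks. Alternatives were other rules for assigning and sharing peaks, stricter lists, other end windows and leaving out each gene.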

Additional observations from a re-analysis of the deposited data

How the results depend on the processing

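The TAC share of peaks in the 10 genes lay between 48.31% and 54.39% under 15 alternatives, beside 52.86% as reported, and its interval included 50% in all of them. It was lowest with the TAC list held to the Sham number of rows, at 48.31%, and was 49.76% at a nearly equal depth-scaled tag number, so its side of 50% depends on how the deeper library is treated. Leaving out each gene in turn gave 52.25 to 54.3%. The shared parts ranged from 53.33 to 65% of the TAC peaks and from 59.81 to 71.15% of the Sham peaks. Counts of covered gene ends also moved: with the first 50% of the rows of each list 0 genes in TAC and 1 in Sham were covered, with a window of 500 bp 0 in TAC and 2 in Sham, and with a window of 2000 bp 6 in TAC and 6 in Sham. Of 100 counts per gene and library 85 stayed within 1.5 times the reported count, and 13 of the 15 others came from the first 50% of the rows, where Hdac9 had 29 TAC and 19 Sham peaks. Some of the 85 could not move: Mef2d had 0 peaks under every setting, and holding the TAC list to the Sham number of rows leaves the Sham list as it was. Nfatc3 had 1 TAC peak with the TAC list held to the Sham number of rows and 2 at a nearly equal depth-scaled tag number. No paired analysis was possible because each group has 1 library, and for the same reason no replicate could be left out. Peak lists without signal per peak limit every comparison to where the threshold was passed: a place with a peak in 1 library alone may lie just below the threshold in the other.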
